A study of Rattus norvegicus with 8 samples.

Results

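The 9 genes Inha, Inhba, Inhbb, Fst, Fstl3, Acvr1b, Acvr2a, Acvr2b and Tgfbr3 encode the inhibins, the activins, their binding proteins and their receptors. They were followed in ovaries of immature female rats (Rattus norvegicus) on 8 one-colour Agilent rat expression arrays. Their probes were found by gene name among the non-control probes of the scanner files, which gave 12 probes for the 9 genes, out of 19390 genes named in the files. Inhbb, Fstl3 and Acvr2b each had a pair of probes and the other 6 genes had 1 probe each. The 4 arrays labelled control hold ovary RNA of rats given 0.2 ml of albumin phosphate buffer at 26 days of age. The 4 arrays labelled PMSG hold ovary RNA of rats given 50 IU of pregnant mare serum gonadotropin (PMSG), a hormone preparation with follicle-stimulating activity, in that volume of the same buffer. The protocol names injection under the skin, and ovaries were taken 48 h after the first injection, at 28 days of age. The titles call the controls untreated, while their treatment field names the buffer. The rat strain and the number of animals behind each array are not given in the sources used here, so p-values measure the spread between these samples, which may in part be technical.

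Activins are dimers of the beta subunits encoded by Inhba and Inhbb, and inhibins join a beta subunit to the alpha subunit encoded by Inha. Both are secreted by granulosa cells of growing follicles, where activin acts locally and inhibin reaches the pituitary and lowers the release of follicle-stimulating hormone. Follistatin (Fst) and follistatin-like protein (Fstl3) bind activin and keep it from its type II receptors (Acvr2a, Acvr2b), which act through the type I receptor Acvr1b on SMAD proteins, while betaglycan (Tgfbr3) helps inhibin to occupy the type II receptors. In immature rats, gonadotropin is generally known to raise transcripts of the inhibin subunits and of follistatin. Every direction below rests on the sample titles, and a positive difference means a higher level in PMSG. The directions measured for Inhba, Inhbb and Fst ran against that background, as did those of Star and Cyp11a1, steroid synthesis genes that gonadotropin is generally known to raise. The files used here do not settle whether the labels of the groups were exchanged, and every sign below would turn if they were.

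Levels are log2 signals minus the 75th percentile of log2 signal on the same array, so that a difference of 1 between arrays is a 2-fold difference for that probe. Levels of different probes are not comparable with each other. The 75th percentile lay between 768.9 and 1103 signal units, and from 80.8% to 84.6% of probes were well above background on an array. By limma, 34.2% of the 25303 tested probes passed an adjusted p of 0.05. Those higher in arrays labelled PMSG made up 51.4% of the calls, a share of 34.5% under median centring, which moved the median of all differences by -0.17 (log2). The median log2 difference over all tested genes was 0.12, and small differences are to be read against it. Arrays correlated better on average with those of their own label than with the other label in each of the 8 cases.

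Of the 12 probes, 6 were lower and 1 was higher in arrays labelled PMSG, where 16.6% of all tested probes were lower and 17.6% higher. With the brighter probe taken for each gene, 5 of the 9 genes differed between the labels (limma, adjusted over all tested probes), where the same rule called 37.2% of all 16587 tested genes. Inhba, Inhbb, Fst and Fstl3 were lower in arrays labelled PMSG, which is 4 of 9 genes against 17.2% of all genes. Acvr2b was higher, which is 1 of 9 against 20.0% of all genes. Inhba and Fst were lower by at least 2-fold, a size that 4.03% of all genes reached in that direction. Values of the groups did not overlap for the brighter probes of Fst, Fstl3 and Acvr2b, 3 of 9 genes, against 40.0% of all genes. The count of 5 genes fell to 3 without control array 2, control array 4, PMSG array 1 or PMSG array 2. The median log2 difference over the 9 genes was -0.39. The ligand subunits and the binding proteins all had negative differences, whereas of the 4 receptor genes only Acvr2a did, with a sign that turned under normexp background correction.

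**Figure D1:**
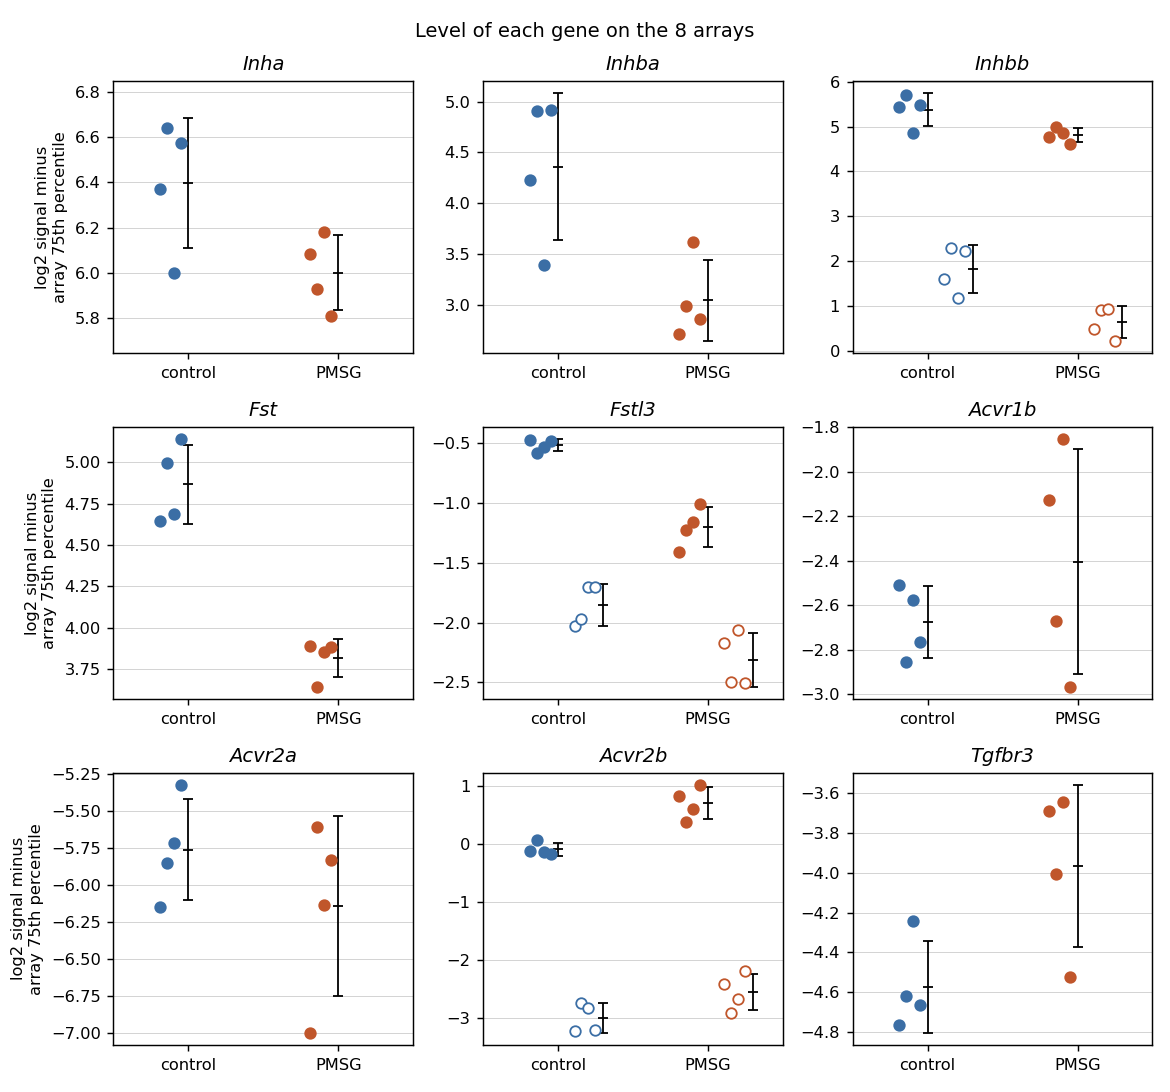
Level of each gene (log2 signal minus the array's 75th percentile, vertical axis, a scale of its own in each panel) on the 4 arrays labelled control (blue) and the 4 labelled PMSG (orange). Each dot is an array, filled for the brighter probe and open for the other probe of the gene, and bars give the mean and SD. Fst lies between 4.65 and 5.14 in control and between 3.64 and 3.89 in PMSG, with no overlap, whereas the Inhba values of control array 3 and PMSG array 3 overlap.

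Inhba, which encodes the beta A subunit shared by activin A and inhibin A, had the largest difference of the 9 genes. Its level was 4.23, 4.90, 3.398 and 4.92 on control arrays 1 to 4 and 2.71, 2.99, 3.62 and 2.86 on PMSG arrays 1 to 4. All PMSG-labelled arrays lay below 3 of the 4 control-labelled ones, and control array 3 lay below PMSG array 3, so the groups overlapped at that point. The mean was 4.36 ± 0.72 (SD, n = 4) in control and 3.05 ± 0.40 (SD, n = 4) in PMSG, a log2 difference of -1.32 (SE 0.36, 95% interval -2.14 to -0.49, adjusted p = 0.0237 with limma). Control was thus 2.49-fold higher, with a 95% interval from 1.40 to 4.42. This call was lost without control array 2 (adjusted p = 0.0636, limma), control array 4 (0.0641), PMSG array 1 (0.0626) or PMSG array 2 (0.0551), and adjusted p ran from 0.00485 to 0.0650 over all alternatives. The probe reads the end of the coding sequence, on the minus strand of chr17:57244565-57244624 in rn4. It is shown because it is the only Inhba probe and spans the stop codon, which is in capitals and is followed by the start of the untranslated part.
Inhba probe: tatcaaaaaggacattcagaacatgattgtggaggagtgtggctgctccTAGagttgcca

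Inhbb, which encodes the beta B subunit of activin B and inhibin B, was also lower, by both of its probes. The brighter probe (chr13:32171058-32171117 in rn4, minus strand) read 5.44, 5.71, 4.85 and 5.49 on the control-labelled arrays and 4.77, 4.98, 4.86 and 4.62 on the PMSG-labelled arrays. Control array 3 was again the lowest of its group and fell within the range of PMSG. The log2 difference was -0.57 (SE 0.19, 95% interval -0.995 to -0.135, adjusted p = 0.0478 with limma), with means of 5.37 ± 0.37 (SD, n = 4) and 4.81 ± 0.15 (SD, n = 4). That call stood close to the threshold and was lost under 11 of 21 alternatives, in a range of adjusted p from 0.00645 to 0.119. These 11 included leaving out any 1 array except control array 3.

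The other Inhbb probe (chr13:32172165-32172224, minus strand) read 1.598, 2.29, 1.17 and 2.23 in control against 0.48, 0.91, 0.94 and 0.22 in PMSG. Here the groups did not overlap, and the difference in log2 was -1.18 (SE 0.28, adjusted p = 0.0137 with limma). Both probes gave the same direction but not the same size. The brighter probe's level minus the other's ran from 3.26 to 3.84 in control and from 3.92 to 4.40 in PMSG, which amounts to 0.62 between their log2 differences (exact two-sided permutation test, p = 0.0286, the smallest that 4 against 4 arrays can give, or 0.0429 adjusted over 3 genes). How large the fall of Inhbb was therefore depends on the probe read.

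Inha encodes the alpha subunit, which only inhibins contain, and it did not pass the threshold. Its level was 6.37, 6.64, 6.001 and 6.58 in control and 6.08, 5.93, 6.18 and 5.81 in PMSG (chr9:74783980-74784040 in rn4, plus strand). The log2 difference was -0.39 with a 95% interval from -0.76 to -0.03 (SE 0.16, adjusted p = 0.0921 with limma). PMSG arrays 1 and 3 lay above control array 3 and below the other control-labelled arrays. The gene passed without control array 3 (log2 difference -0.53, adjusted p = 0.0244 with limma), under quantile normalization (0.0430) and under median centring (0.0318), in a range up to 0.213 over all alternatives. The signal of this probe ran from 55823 to 105172 units with no spot called saturated, and its 2 spots on an array differed by at most 0.10 (log2).

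Control array 3 was the lowest of its group for Inha, for Inhba and for both probes of Inhbb, at 0.40, 0.96, 0.52 and 0.65 below the control means. It did not stand so low for the binding proteins, with Fst 0.18 below its control mean and the brighter Fstl3 probe 0.01 below. The mean level of 9 granulosa cell markers, none of them among the 9 genes, was also lowest on control array 3, at 0.80 against 1.14, 1.51 and 1.47 on control arrays 1, 2 and 4. All of these markers but Amh and Esr2 were lowest there. Amh read -0.72 on control array 3 and -1.10 on control array 4. Esr2 read -3.56 on control array 3 and -3.58 on control array 1. Granulosa markers were not alone in this, since control array 3 was also the lowest control for the mean theca (1.43) and luteal (3.46) levels. It was the highest control for leukocyte (0.43), endothelial (-0.66) and fibroblast and smooth muscle markers (2.89). For oocyte markers and for oviduct and surface epithelium markers it lay within the range of the other controls. A link between these markers and the subunit genes was not tested. Without control array 3 the log2 difference of Inhba was -1.64. In RNA of an ovary, fewer cells of a type and less RNA per cell cannot be told apart.

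**Figure D2:**
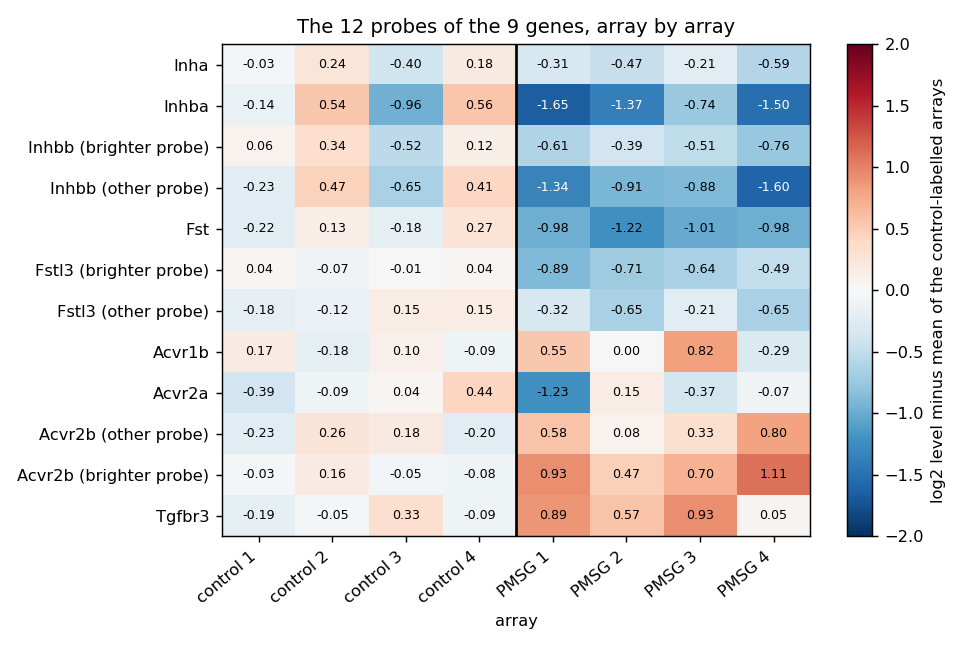
Levels of the 12 probes (rows) on the 8 arrays (columns), each minus the mean of the control-labelled arrays for that probe (log2, blue below and red above, the number printed in each cell). Control array 3 stands at -0.96 for Inhba and at -0.40 for Inha, while Fst lies between -1.22 and -0.98 on all PMSG-labelled arrays.

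Whether the subunits moved unequally was asked within arrays, where the scaling of the array cancels. Inhba minus Inha was -2.04 ± 0.43 (SD, n = 4) in control and -2.96 ± 0.33 (SD, n = 4) in PMSG, so Inhba was lower relative to Inha by 0.92 (log2). Inhba minus Inhbb changed by -0.75 and Inhbb minus Inha by -0.17 with the brighter Inhbb probe, and by -0.44 and -0.48 with the mean of both Inhbb probes. Under quantile normalization Inhbb minus Inha changed by -0.062. None of these passed in the exact two-sided permutation test (p = 0.0571, 0.0571 and 0.114, or 0.0952, 0.0952 and 0.143 adjusted over 5 pairs). For Inhba against each of the others, only control array 3 and PMSG array 3 ran across the groups. A difference between the changes of the subunits was thus not detected with this number of arrays, which does not show that they changed alike.

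The stretches upstream of Inha and Inhba are given because both genes are known targets of cyclic AMP signalling downstream of the follicle-stimulating hormone receptor. RefSeq promoter entries on GRCr8 matched 8 of the 9 genes, all but Fst, and 250 bases before the annotated start were searched on both strands for 4 motifs. These were TGANGTCA, which includes the palindromic cyclic AMP response element, TGCGTCA, a shorter variant of it, the AP-1 motif TGANTCA and the nuclear receptor motif AGGTCA, none of which overlapped in these genes. TGANGTCA was found in Inhba alone among the 8 genes, from 133 to 126 bases before the start, and in 8.88% of 33469 promoters of that length. TGCGTCA was found in Inha alone, from 119 to 113 bases before the start, and in 1.66% of promoters. AGGTCA was found in Inha and Fstl3 and in 14.1% of promoters, and TGANTCA in none of the 8 and in 6.34%. Such matches describe letters only. Capitals mark TGANGTCA and TGCGTCA in the 2 sequences, from chr9:84442859-84443108 (plus strand) and chr17:53804509-53804758 (minus strand).
Inha upstream: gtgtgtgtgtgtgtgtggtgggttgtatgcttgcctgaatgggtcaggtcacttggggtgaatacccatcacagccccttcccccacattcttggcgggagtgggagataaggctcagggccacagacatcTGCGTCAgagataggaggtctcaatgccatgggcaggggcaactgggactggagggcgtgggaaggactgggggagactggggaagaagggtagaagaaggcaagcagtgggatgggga
Inhba upstream: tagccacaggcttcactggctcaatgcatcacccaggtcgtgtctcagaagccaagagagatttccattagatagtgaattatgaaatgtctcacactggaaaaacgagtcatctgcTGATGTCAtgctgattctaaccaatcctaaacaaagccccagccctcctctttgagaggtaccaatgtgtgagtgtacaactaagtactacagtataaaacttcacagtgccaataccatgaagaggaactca

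Fst, encoding follistatin, was lower in arrays labelled PMSG, without overlap between the groups. Its level was 4.65, 4.99, 4.69 and 5.14 in control and 3.89, 3.64, 3.85 and 3.89 in PMSG. Every PMSG-labelled array lay below every control-labelled array, and the gap between the nearest pair was wider than the range of either group. The means were 4.87 ± 0.24 (SD, n = 4) and 3.82 ± 0.12 (SD, n = 4), a log2 difference of -1.05 (SE 0.14, 95% interval -1.36 to -0.73, adjusted p = 8.45e-04 with limma). Control was 2.07-fold higher, with an interval from 1.66 to 2.57. The 2 spots of the probe differed by at most 0.05 (log2) on any array.

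The Fst probe lies on the minus strand of chr2:46542246-46542305 in rn4 and ends at the stop codon of the longer isoform, whose acidic tail it encodes. It is the only Fst probe, and the fall given for Fst is that of the transcripts it reads. Isoforms that differ in this tail were not measured apart. The sequence is shown for that reason, with the stop codon in capitals.
Fst probe: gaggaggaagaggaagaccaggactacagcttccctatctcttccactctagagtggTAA

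Fstl3, whose product binds activin as follistatin does, fell as well, and both of its probes passed. The brighter probe (chr7:11437928-11437987 in rn4, minus strand) read -0.48, -0.59, -0.53 and -0.49 in control and -1.41, -1.23, -1.17 and -1.01 in PMSG. The control-labelled arrays were nearly level, with an SD of 0.05, and no value overlapped. The log2 difference was -0.68 (SE 0.11, adjusted p = 0.00186 with limma), a level 1.604-fold higher in control.

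The other Fstl3 probe lies in the coding sequence (chr7:11438511-11438570, minus strand) and read from -2.03 to -1.70 in control and from -2.50 to -2.06 in PMSG. The difference in log2 was -0.46 (SE 0.14, adjusted p = 0.0405 with limma), again without overlap. The 2 Fstl3 probes did not differ in size beyond the spread between arrays (-0.23, exact permutation p = 0.314). Fst minus Inhba, a contrast of the binding protein with the ligand subunit, changed by 0.27 (exact permutation p = 0.457), with control values from 0.09 to 1.29 and PMSG values from 0.23 to 1.18. Leaving out 1 array moved it between 0.13 (without control array 2, and likewise without PMSG array 1) and 0.53 (without control array 3). A change in Fst relative to Inhba was therefore not detected, and both genes were lower in arrays labelled PMSG.
Fstl3 coding probe: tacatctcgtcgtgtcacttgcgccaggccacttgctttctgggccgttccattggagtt

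Among the receptors, the type II receptor gene Acvr2b was higher in arrays labelled PMSG. Its brighter probe (chr8:124395674-124395733 in rn4, plus strand) read -0.13, 0.07, -0.15 and -0.18 in control and 0.83, 0.37, 0.61 and 1.01 in PMSG. The groups did not overlap, and PMSG was higher by 0.80 in log2 (SE 0.15, 95% interval 0.46 to 1.14, adjusted p = 0.00424 with limma), or 1.74-fold. The other probe, in the part that encodes the kinase domain (chr8:124392440-124392499, plus strand), read from -3.23 to -2.74 in control and from -2.92 to -2.20 in PMSG. It had a log2 difference of 0.45 (95% interval 0.01 to 0.88) and did not pass (adjusted p = 0.103 with limma). Within arrays the probes moved unequally by 0.36, with no overlap (exact permutation p = 0.0286, or 0.0429 adjusted over 3 genes). The direction was shared by both Acvr2b probes, and the size and the call were not.
Acvr2b kinase domain probe: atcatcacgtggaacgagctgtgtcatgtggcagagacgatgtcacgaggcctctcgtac

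The other type II receptor gene, Acvr2a, gave a faint signal, between 7.70 and 27.5 units. It was well above background on 4 control-labelled and 3 PMSG-labelled arrays, the exception being PMSG array 1, and its spots differed by up to 1.09 (log2) on an array. The levels were -6.15, -5.85, -5.72 and -5.33 in control and -7.00, -5.61, -6.13 and -5.83 in PMSG (chr3:29808067-29808126 in rn4, plus strand). The groups overlapped, and the log2 difference of -0.38 had a 95% interval from -1.09 to 0.33 (adjusted p = 0.359 with limma). Normexp background correction turned its sign, to 0.041, and without PMSG array 1 the difference was -0.097. Acvr2a minus Acvr2b within arrays changed by -1.18, from -5.67 ± 0.40 (SD, n = 4) to -6.85 ± 0.76 (SD, n = 4), and the difference did not pass (exact permutation p = 0.0571, or 0.0952 adjusted over 5 pairs).

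Acvr1b, the type I receptor that activin uses, showed no difference beyond the spread. Its levels were -2.51, -2.85, -2.58 and -2.76 in control and -2.13, -2.67, -1.85 and -2.97 in PMSG (chr7:139958363-139958422 in rn4, plus strand). PMSG arrays 1 and 3 stood above every control-labelled array and PMSG array 4 below them all. The log2 difference was 0.27 with a 95% interval from -0.28 to 0.82 (adjusted p = 0.400 with limma). It was 0.18 without PMSG array 1, 0.087 without PMSG array 3 and 0.46 without PMSG array 4, and 0.10 under median centring, and passed in none of these.

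Tgfbr3, encoding betaglycan, stood higher in PMSG but just missed the threshold. It read -4.77, -4.62, -4.24 and -4.67 in control and -3.69, -4.01, -3.64 and -4.53 in PMSG (chr14:3240135-3240194 in rn4, plus strand). PMSG array 4 lay within the control range and the other 3 lay above it. The log2 difference was 0.61 (SE 0.21, 95% interval 0.12 to 1.0999, adjusted p = 0.0589 with limma). The call was made without PMSG array 4 (0.79, adjusted p = 0.00722 with limma), without control array 3 (0.72, adjusted p = 0.0486), and under 3 other alternatives, within a range from 0.00722 to 0.139.

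**Figure D3:**
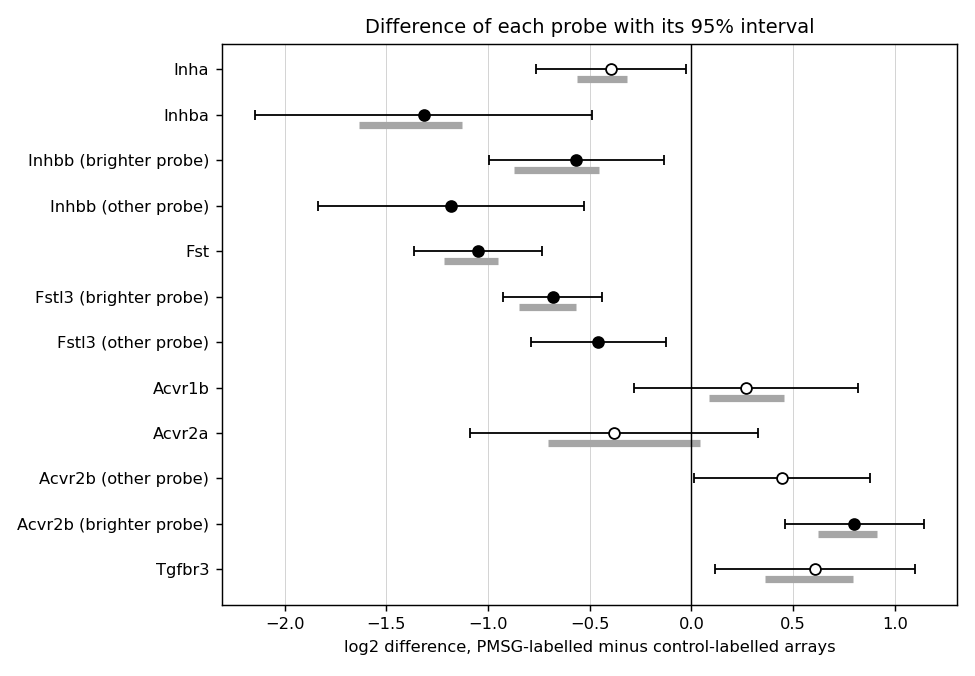
Log2 difference between arrays labelled PMSG and control (horizontal axis) for the 12 probes. Dots are limma estimates with 95% intervals, filled where the adjusted p was under 0.05, and grey bars span the values of the brighter probe under the other settings tried. Inhba lies at -1.32 and Fst at -1.05, and the brighter Acvr2b probe lies at 0.80.

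A list of 30 further genes of the activin and inhibin pathway was read in the same way. Of the 27 tested, 11 passed, with 9 increases and 2 decreases in PMSG (limma), where 20.0% and 17.2% of all genes did so. Their median log2 difference was 0.12, the same as over all genes. The 5 tested binding proteins and decoys held 4 of the increases. Wfikkn2 and Wfikkn1, whose products bind the ligands myostatin and GDF11, rose by 2.93 (SE 0.41, adjusted p = 0.00117 with limma) and 1.05 (SE 0.14, adjusted p = 8.85e-04). Wfikkn2 read -3.01, -3.05, -1.88 and -3.63 in control and 0.42, -0.54, -0.40 and 0.66 in PMSG, and control array 3 was the highest of its group. Bambi, a decoy receptor without kinase activity, rose by 0.72 and Igsf1, once described as an inhibin-binding protein, by 0.80.

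Among the intracellular parts, Smad7, the inhibitory SMAD, rose by 1.31 (SE 0.22, adjusted p = 0.00247 with limma), from a range of -2.60 to -2.33 in control to -1.58 to -0.62 in PMSG. Smad2, which carries the activin signal to the nucleus, fell by 0.92 (SE 0.14, adjusted p = 0.00170 with limma), and neither gene's groups overlapped. The Smad2 probe gave low signals, from 52.3 to 159 units. Under normexp background correction its log2 difference was smaller, at -0.52, and still passed (adjusted p = 0.00322 with limma). Smad4 had a log2 difference of 0.04 and did not pass. The single Smad3 probe was well above background on 0 of 8 arrays and was not tested. Of the proteases that cut subunit precursors, Pcsk5 fell by 0.62 (adjusted p = 0.00824 with limma) and Pcsk6 rose by 0.49 (adjusted p = 0.0146), while Furin stood at 0.27 and did not pass (adjusted p = 0.154). Smurf2, Tgif1 and the type I receptor Tgfbr1 were the remaining increases, at 0.42, 0.57 and 0.44.

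The other ligands on the list did not pass. Inhbe, Mstn and Gdf11 had log2 differences of -0.01, -0.04 and -0.02, and the Inhbc probe was well above background on 0 of 8 arrays. The type I receptor Acvr1c varied widely within the groups, from -2.75 to 1.26 in control and from -0.61 to 1.16 in PMSG, and its difference of 0.82 did not pass (adjusted p = 0.434 with limma). Median centring left 6 of the 11 calls, 4 higher and 2 lower, and ended those of Pcsk6, Tgfbr1, Bambi, Smurf2 and Tgif1. Averaging all probes of a gene left 9 calls and ended those of Pcsk6 and Smurf2. Tdgf1 was not analysed here.

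**Figure D4:**
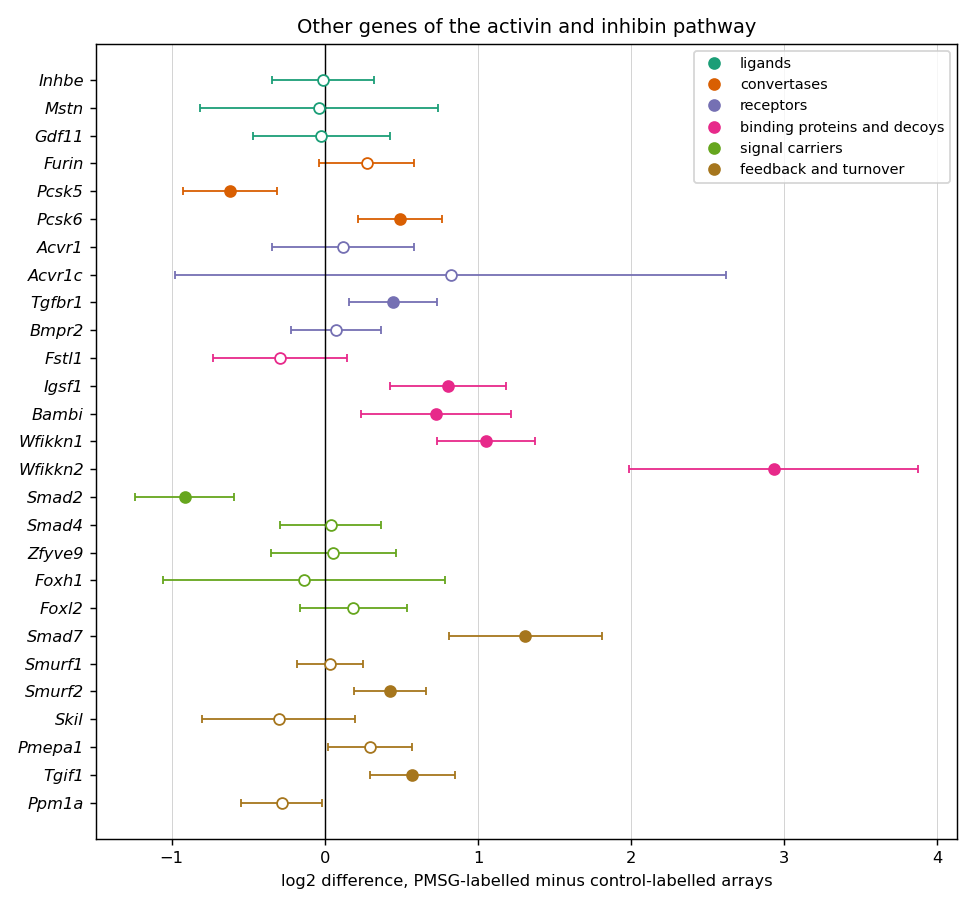
Log2 difference between arrays labelled PMSG and control (horizontal axis) for the 27 tested pathway genes, coloured by role, with 95% intervals from limma and filled dots where the adjusted p was under 0.05. Wfikkn2 lies at 2.93 and Smad7 at 1.31, and Smad2 is the lowest at -0.92.

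Markers of ovarian cell types differed between the labels at the same time, and their part in the results above was not tested. Of 9 granulosa markers tested 3 were higher, 1 was lower and 5 did not pass (Foxl2, 1 of these 5, is also on the pathway list), with a median log2 difference of 0.19 (limma). Among them Amh rose by 3.03, Serpine2 by 1.51 and Esr2 by 0.95, while Nr5a2 fell by 1.47. Ccnd2 and Hsd17b1 stood at -0.43 and -0.23 and did not pass. The mean granulosa level ran from 0.80 to 1.51 in control and from 1.45 to 1.82 in PMSG, with overlap and with members that went both ways. Of 6 luteal and late follicle markers 5 were lower, with a median of -2.04 and Cyp11a1 and Star at -3.36 and -2.75. Their mean level ran from 3.46 to 3.67 in control and from 0.92 to 1.85 in PMSG. All 11 oocyte markers were higher, with a median of 1.94, and their mean level ran from -2.12 to -1.37 in control and from -0.31 to 0.47 in PMSG. H1foo and Zar1 led with 2.22 and 2.18.

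Of 6 endothelial markers 4 passed as lower and none as higher, with a median of -0.67 and Tek and Flt1 at -1.20 and -1.04. Cdh5 and Pecam1 stood at 0.54 and -0.16 and did not pass. The Tek probe was faint, between 8.26 and 35.2 units, and was well above background on 3 of 4 PMSG-labelled arrays. Theca markers were higher in 2 of 4 genes, with Insl3 at 2.60 and Ptch1 at 0.79, and a median of 0.47. The other 2 theca markers, Cyp17a1 and Col1a2, stood at -0.22 and 0.14 and did not pass. Leukocyte markers were higher in 4 of 5, with a median of 0.64 and Ptprc and Aif1 at 0.69 and 0.68. Of 7 oviduct and surface epithelium markers 5 were higher, with a median of 1.67 and Muc1 and Cdh16 at 3.04 and 2.51. In control, signals of Muc1 and of Dnah5, also among the 5, were near the floor. Their probes were well above background on 3 and 2 of the 4 control-labelled arrays, so the size of these differences is uncertain. Fibroblast and smooth muscle markers were higher in 2 of 4, with Dcn at 0.70, Lum at 0.58 and a median of 0.57. The tissue label was borne out by granulosa, theca and oocyte markers, which were well above background on all 8 arrays wherever they were tested, and the granulosa marker Cyp19a1 was not analysed here.

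The profiles most like those of the ligand and follistatin genes were sought over the 8 arrays among 15348 other genes above background on all of them. Likeness was the root mean square difference between log2 levels, each centred on its own mean. It was taken over the arrays of both labels, so log2 differences of the nearest genes close to the gene's own follow from the choice. Nearest to Inhba were Atp4b (0.29), Acot1 (0.32) and RGD1306636 (0.34), with log2 differences from -1.44 to -1.06. Nearest to Inha were Plk4 (0.07), Mms22l (0.08) and Cep72 (0.09), and nearest to Inhbb were Gclc (0.12), Cep72 (0.14) and Nasp (0.14). Nearest to Fst were C1galt1 (0.07), Rrm2 (0.09) and Wscd1 (0.14), with log2 differences from -1.11 to -1.01. Inha itself ranked 8 among the genes nearest to Inhbb, at 0.15, and Fst ranked 27 among those nearest to Inhba, at 0.44. Seen from the other gene of each pair, Inhbb ranked 96 among the genes nearest to Inha. Inhba ranked only 3244 among those nearest to Fst, so Fst and Inhba were not close in both directions. Genes that change little lie near each other by this measure, so small values for Inha and Inhbb do not set those pairs apart.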

How the data were processed

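Per the labels' protocols, total RNA (500 ng per sample) was copied from an oligo-dT primer with a T7 promoter and amplified into cRNA carrying Cy3. Per the file headers, the deposited intensity of each spot comes from Agilent Feature Extraction 11.5.1.1, which subtracted background and detrended each array; probe coordinates are those of build rn4, and 0 spots were saturated. A deposited table of log2 values by the authors served as an alternative. It followed the log2 signal minus each array's 75th percentile, every column its own array best (correlation at least 0.998). Column medians ran from -3.21 to -2.82. The median absolute difference lay between 0.004 and 0.015 (log2) on an array, but single probes differed by up to 13.5 (PMSG array 1). The exact processing of the authors' values is not given in the sources used here. The file calls (well above background, outlier) are other deposited values. Columns not used numbered 0.

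Control spots and outlier spots were left out, log2 processed signals of a probe's spots were averaged, and each array's 75th percentile was subtracted. A probe was tested where at least 0.5 of its usable spots were well above background on at least 4 of 8 arrays: 25303 of 30350. Groups, taken from the titles, were compared by lmFit and eBayes of limma 3.58.1 (R 4.3.3) without covariates, and p-values were adjusted by Benjamini-Hochberg over all tested probes, with a threshold of 0.05. Pairs of genes were compared within arrays by an exact two-sided permutation test, whose smallest p with 4 against 4 is 0.0286. The number of arrays limits the precision. The fit was tested on simulated data. A gene with several probes was represented by the brightest one over all arrays. Named are all 9 genes and the 3 pathway genes per direction with the largest difference past the threshold (only 2 were lower). Other pathway genes complete a role, and the 3 nearest profiles and the 2 leading markers per list are named too. Pathway genes and cell type markers beyond that rule were chosen after their values were seen. The comparison of 2 probes of a gene was chosen likewise. The members and the lists were chosen with earlier results of these data known. Alternatives were normexp, quantile normalization, median centring, another percentile, the deposited values, both filters on dim probes, array weights, a variance trend, blocks, each array left out, and all probes of a gene averaged. Slide and scan date did not vary between arrays.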

Additional observations from a re-analysis of the deposited data

Results flagged for a closer look

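Of 44 groups of 4 values examined, 1 held an array far from the others, where chance gives about 1 in 20. This was Fst in arrays labelled PMSG: array 2 read 3.64 and the others 3.85 to 3.89, a gap of 0.849 of the range. The call of Fst held without that array.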

How the results depend on the processing

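Over 20 alternatives Fst, Fstl3 and Acvr2b kept their direction and their call, and Inhba, Inhbb, Inha, Tgfbr3 and Acvr1b kept their direction. Acvr2a reversed to 0.041 under normexp background correction; the cause was not tested. The count of genes past the threshold, 5 of 9, lay between 3 and 7 with any 1 array omitted, and was 7 under quantile normalization. Deviations of arrays with the same replicate number correlated at 0.0444, 0.0361, 0.183 and -0.0192. These values gave no sign that the numbers pair the arrays, but so few arrays cannot exclude a pairing. With the replicate block 3 of the 9 genes passed (Fst, Fstl3 and Acvr2b), and 9 of the pathway genes. Of the pathway genes 6 passed under median centring against 11. Over all probes the count ran from 6552 to 11382 against 8658, both ends from leaving out 1 array. A block for the array row on the slide kept all 5 calls. Without 1 array, the differences between pairs are values with no test: Inhba against Inha ran from -1.11 to -0.78, Inhba against Inhbb from -0.92 to -0.60, Inhbb against Inha from -0.25 to -0.13, Fst against Inhba from 0.13 to 0.53 and Acvr2a against Acvr2b from -1.47 to -0.86. The other probe of a gene, an alternative chosen after seeing the data, kept the calls of Inhbb and Fstl3 and lost that of Acvr2b (limma adjusted p = 0.103). Faint signal limits Acvr2a and Tgfbr3.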
